A study of Mus musculus with 4 samples.

Results

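Il4, Il13, Il5, Csf2 and Areg encode the type 2 cytokines interleukin-4, interleukin-13 and interleukin-5, the granulocyte-macrophage colony-stimulating factor GM-CSF, and the growth factor amphiregulin. These 5 genes were taken by name from the 32285 genes of a table of unique molecular identifier (UMI) counts, and 358 of its 6054 cells held a UMI of at least 1 of them. The cells came from the esophagus of 5 Il20rb knock-out (labelled IL20RB-/-) and 5 wild-type mice, all put through a protocol that models eosinophilic esophagitis, in which allergen drives eosinophils into the esophageal wall. IL20RB is a receptor chain through which IL-19, IL-20 and IL-24 signal, and the series compares the animals with and without it. Both groups received the same treatment. The ear skin was treated daily for 14 days with 1 nmol of MC903 (calcipotriol, a vitamin D analog that inflames the skin) and 5 mg/ml of ovalbumin (OVA), OVA was then given in the drinking water at 1.5 g/l for 4 days, and 50 mg of OVA was given by gavage on days 15 and 17, before organ collection on day 18. The labels give no strain, age or sex, do not name the knock-out allele or the cells it affects, and describe no animals outside the model, so the values compare genotypes within it. The cells of each animal carried 1 hashtag antibody, were pooled, sorted as viable CD45+ (immune) cells and run in 2 droplet wells that gave 3' end libraries. The animal was the replicate.

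Type 2 cytokines are made mainly by T helper 2 cells and by group 2 innate lymphoid cells (ILC2), which lack antigen receptors and respond to epithelial signals such as IL-33. Basophils and mast cells are further sources, above all of IL-4. IL-4 and IL-13 share a receptor chain (IL-4Rα) and signal through STAT6, IL-5 drives the growth and survival of eosinophils, GM-CSF acts on myeloid cells, and amphiregulin binds the epidermal growth factor receptor on epithelial and stromal cells. Il4, Il13 and Il5 lie in 1 cluster on chromosome 11 with the DNA repair gene Rad50 between Il13 and Il5, and Csf2 lies farther along the same chromosome beside Il3.

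The 150 bases before each RefSeq transcription start (build GRCm38.p6) are shown because 4 of the 5 genes share a chromosome region, where Il4 to Csf2 spans 637440 bases, while Areg lies on chromosome 5. The windows are chr11:53618666-53618815 (minus strand) for Il4, chr11:53634703-53634852 (minus strand) for Il13, chr11:53720644-53720793 (plus strand) for Il5, chr11:54249900-54250049 (minus strand) for Csf2 and chr5:91139449-91139598 (plus strand) for Areg. Each is written 5' to 3' on the gene's own strand, and capitals mark matches, on either strand, to GGAAA (the core bound by NFAT factors, which T cell activation switches on) or AGATAA (bound by GATA factors).
Il4: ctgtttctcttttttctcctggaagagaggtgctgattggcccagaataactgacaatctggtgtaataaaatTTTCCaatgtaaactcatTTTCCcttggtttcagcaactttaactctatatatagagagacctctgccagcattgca
Il13: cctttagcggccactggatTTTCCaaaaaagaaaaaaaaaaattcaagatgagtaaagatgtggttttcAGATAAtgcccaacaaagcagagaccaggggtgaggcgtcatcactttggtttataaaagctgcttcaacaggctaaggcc
Il5: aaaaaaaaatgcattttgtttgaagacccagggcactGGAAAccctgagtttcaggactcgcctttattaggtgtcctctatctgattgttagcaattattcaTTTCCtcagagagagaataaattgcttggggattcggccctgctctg
Csf2: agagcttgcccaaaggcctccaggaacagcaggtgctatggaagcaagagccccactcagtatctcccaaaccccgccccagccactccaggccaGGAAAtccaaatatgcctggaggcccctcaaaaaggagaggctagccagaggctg
Areg: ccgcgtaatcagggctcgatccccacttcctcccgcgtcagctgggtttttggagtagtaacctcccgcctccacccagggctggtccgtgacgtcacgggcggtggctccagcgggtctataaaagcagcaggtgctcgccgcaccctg
The windows held 2 GGAAA matches in Il4 and in Il5, 1 in Il13, 1 in Csf2 and 0 in Areg, and 37.6% of 32843 mouse promoter windows of this length held at least 1. AGATAA occurred once, in Il13, 81 to 76 bases before the start, and in 5.65% of all windows. No window held TGATAA (4.45% of all windows), the AP-1 sequence TGANTCA (4.24%) or GAGATTC of the conserved lymphokine element (1.53%). For GATA factors only AGATAA and TGATAA were searched. Other forms such as AGATAG were not marked, so a window without a capital may still hold a GATA site. These matches describe letters in the reference and were set beside the counts only as context.

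The UMIs per animal ranged from 1805883 to 5666994 in knock-out and from 2884534 to 5113431 in wild-type animals, and the median depth per cell averaged 5733 ± 379 UMIs in knock-out and 4776 ± 913 in wild-type animals (SD, n = 5 each). Knock-out animals gave 2633 cells (271 to 877 each) and wild-type animals 3421 (500 to 897 each), and 2 cell barcodes occurred in both wells. Il20rb itself had 6 UMIs in knock-out and 10 in wild-type animals, or 0.402 ± 0.101 against 0.501 ± 0.390 CPM (UMIs scaled to a fixed library total; two-sided exact permutation p = 0.595, n = 5 each), so the table does not separate the genotypes by the targeted gene. The share of neutrophil-gated cells was 0.256% to 6.50% in knock-out and 1.24% to 32.2% in wild-type animals. No cell of the 6054 entered the gate for eosinophils, which allows up to 0.0496% of the cells in this table. Every cell in it held at least 1000 UMIs, so the value says nothing of cells with less RNA or of eosinophils in the tissue.

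Cells were placed by the number of lineage markers with a UMI, from 8 genes per lineage and at least 2 of them. This gave 3671 monocyte or macrophage-gated cells (1859 knock-out, 1812 wild-type), 404 T-gated cells (99 of them knock-out), 157 ILC2-gated cells (44 knock-out, 113 wild-type) and 23 mast cell or basophil-gated cells (7 knock-out, 16 wild-type). The T and ILC2 gates did not separate their cells cleanly. Of 49 T-gated cells with Il5, 79.6% had the T cell receptor constant gene Trbc1 and 57.1% Cd3g, but 8.16% Cd3e and 6.12% Trac, while 89.8% had the ILC2 and Th2 factor Gata3 and 85.7% the IL-33 receptor Il1rl1. A finer division was therefore chosen after the data were seen, with the markers of these Il5 carriers known. Core T cells were T-gated cells with a UMI of Cd3e, Cd3d, Trac, Trdc or Cd6, and numbered 259 (71 knock-out, 188 wild-type). ILC2-pattern cells were ILC2-gated or T-gated cells without a UMI of these 5 genes, with at least 2 ILC2 markers and a UMI of Gata3, Rora or Klrg1. They numbered 270 (59 knock-out, 211 wild-type), of which 138 came from the T gate. Among ILC2 genes that no gate used, 79.3% of ILC2-pattern cells had Il2ra and 65.6% Ptpn13, against 31.3% and 19.3% of core T cells. Lmo4 was in 66.3% and 16.2%, and Cd81 in 49.3% and 12.0%. Cxcr6 was alike in both classes (38.9% and 38.2%), and Icos was lower in ILC2-pattern cells (15.6% against 37.8%). T cell receptor genes were also frequent, with Trbc2 in 71.5%, Trbc1 in 46.3% and Cd3g in 31.9% of ILC2-pattern cells, and in 92.0%, 76.1% and 55.1% of those from the T gate, so the class is named by its rule and may hold T cells. Cd5 and Cd8a were found in 0 of the 270 (up to 1.11% for each) and Cd4 in 0.37%. Of the other T cell genes outside the gates, Lat was in 33.3% (47.5% of core T cells) and Cd2 in 14.1% (58.7% of core T cells). Of 25 ILC2-gated cells left outside the class, 76.0% had Cd74, 56.0% Mgl2 and 40.0% Cd209a, genes of antigen-presenting cells.

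Of the 358 cells with a member, 141 were ILC2-pattern cells, 115 monocyte or macrophage-gated cells, 44 core T cells and 12 mast cell or basophil-gated cells. The members differed in where their UMIs lay: Il5 and Csf2 were found mainly in ILC2-pattern cells, Il4 in a few cells of other classes, Il13 in both, and Areg across lymphoid and myeloid cells. The core T genes were chosen knowing that they were rare in T-gated Il5 carriers. The split of Il5 between ILC2-pattern and core T cells is therefore partly set by the rule. In the first gates, Il5 was in 28 ILC2-gated and 49 T-gated cells, and Csf2 in 40 and 52. At least 1 member was detected in 52.2% of ILC2-pattern cells and 17.0% of core T cells. The counts describe detected transcripts of the 3' end, and the intervals given below are exact binomial 95% intervals, while the limit beside a count of 0 is 3 cells of the total, and both cover counting error only.

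**Figure D1:**
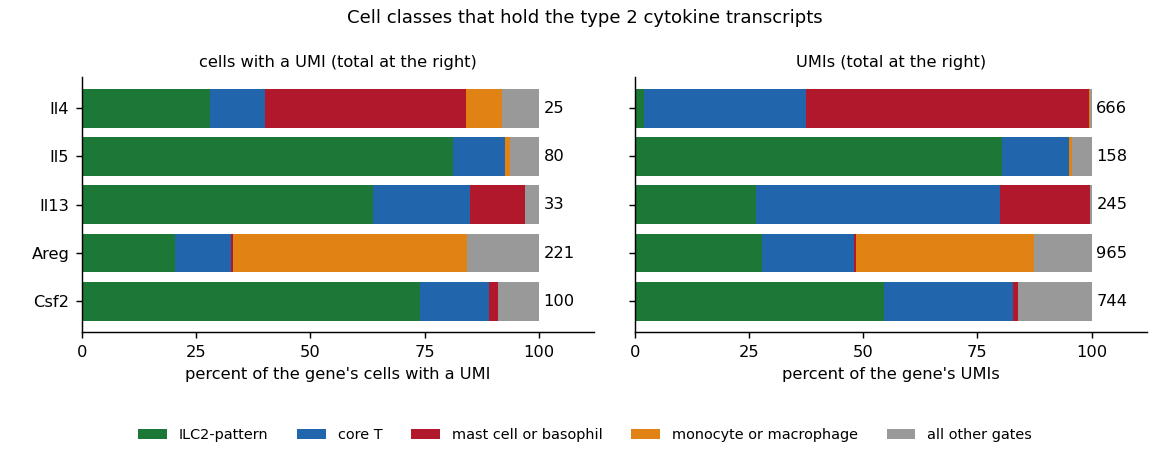
Percent of each gene's carrier cells (left) and of its UMIs (right) in 4 cell classes and all other gates, both genotypes together, with totals at the right of each bar. Il5 and Csf2 lie mostly in ILC2-pattern cells, while 62.0% of Il4 UMIs lie in the mast cell or basophil gate and 51.1% of the cells with Areg are monocyte or macrophage-gated.

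Il4, which drives T helper 2 differentiation and class switching to IgE, was carried by few cells. Its 666 UMIs lay in 25 cells, and 4 of these held 619 UMIs, or 92.9%. The mast cell or basophil gate held 413 Il4 UMIs in 11 of 23 cells, core T cells 236 in 3 cells, and ILC2-pattern cells 13 in 7 cells. In the monocyte or macrophage gate 2 of 3671 cells (0.0545%) had an Il4 UMI, at a median depth of 5933 UMIs against 2552 in the mast cell or basophil gate.

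The mast cell or basophil gate held cells of different kinds, told apart after the values were seen by the basophil protease gene Mcpt8. 3 cells had 11, 12 and 16 Mcpt8 UMIs, none of the mast cell proteases Mcpt4, Tpsb2 and Cma1, and 36 to 54 UMIs of the histamine-forming enzyme Hdc. These basophil-like cells held 200, 87 and 114 Il4 UMIs, with 20, 11 and 16 UMIs of Il13 and 32, 15 and 42 of Il6, and the first pair came from knock-out animal 1 and the last from wild-type animal 2. The other 20 cells all held Mcpt4, Tpsb2 and Cma1, as mast cells do, and had 12 Il4 UMIs in 8 cells and 0 UMIs of Il6. The fourth cell rich in Il4 was a core T cell of wild-type animal 2 with 218 Il4 and 114 Il13 UMIs among its 13814 UMIs, with UMIs of Cd3e, Cd3d, Trac, Cd4 and Gata3. Another core T cell, of wild-type animal 3, held 17 Il4 UMIs, and no other cell held more than 4.

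Il13, which acts on epithelium and is the cytokine most closely tied to barrier changes in eosinophilic esophagitis, had 245 UMIs in 33 cells. Of these cells, 21 were ILC2-pattern cells, 7 core T cells and 4 mast cell or basophil-gated cells. The UMIs were divided otherwise, with 65 in ILC2-pattern cells, 131 in core T cells (114 of them in the cell just named) and 48 in the mast cell or basophil gate. No monocyte or macrophage-gated cell held one, which allows a share of up to 0.0817% of 3671 cells. Among ILC2-pattern cells 7.78% had Il13 (interval 4.88% to 11.6%). All 7 core T cells with Il13 had a UMI of Gata3. Of the 7, 3 had a UMI of Trdc, the constant gene of the γδ T cell receptor, which marked 40 of the 259 core T cells. These 3 cells all came from wild-type animal 3 and held 33427, 3194 and 6106 UMIs of all genes.

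Il5, the eosinophil growth factor, had 158 UMIs in 80 cells, and 43 of these held 1 UMI. Il5 was found in 65 of 270 ILC2-pattern cells (24.1%, interval 19.1% to 29.6%), which held 127 of the UMIs, at most 9 in a cell. It was found in 9 of 259 core T cells (3.47%), and in 5 of the 9 the T cell evidence was 1 UMI of the 5 core genes beside 3 or more ILC2 markers. Those 5 cells held 18 of the 23 Il5 UMIs of core T cells. In the monocyte or macrophage gate 1 of 3671 cells (0.0272%) had Il5, at a median depth of 5933 UMIs against 3309.5 in ILC2-pattern cells. The share depended on depth: 32.6% of ILC2-pattern cells at or above their median depth had Il5 and 15.6% of those below it. With each cell thinned to 1000 UMIs the share was 9.46% in ILC2-pattern cells and 1.56% in core T cells.

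Csf2, which encodes GM-CSF, had 744 UMIs in 100 cells, of which 74 were ILC2-pattern and 15 core T cells. It was found in 27.4% of ILC2-pattern cells (interval 22.2% to 33.1%), with 406 UMIs, and in 5.79% of core T cells (interval 3.28% to 9.37%), with 209 UMIs. In 7 of these 15 core T cells, holding 92 of the UMIs, the T cell evidence was 1 UMI of the 5 core genes beside 3 or more ILC2 markers. The 10 cells richest in Csf2 held 55.8% of its UMIs. The richest, with 105 Csf2 and 8 Areg UMIs, tied between gates. It came from knock-out animal 5 and had UMIs of Gata3, Il7r, Il1rl1, Trbc2 and Arg1. The next, a core T cell of knock-out animal 2 with Cd4, held 52. No monocyte or macrophage-gated cell held Csf2, with an upper limit of 0.0817%.

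Areg, a ligand of the epidermal growth factor receptor, was the most widely distributed member, with 965 UMIs in 221 cells. Monocyte or macrophage-gated cells held 376 UMIs in 113 cells, ILC2-pattern cells 268 in 45 cells and core T cells 196 in 27 cells. These were 3.08%, 16.7% and 10.4% of the cells of each class (thinned to 1000 UMIs, 0.977%, 9.54% and 6.14%). Neutrophil-gated cells had it in 0.374% (thinned, 0.212%; median depth 1816 UMIs), cells gated as conventional dendritic cells (cDC) in 1.01% (thinned, 0.300%; median depth 7469.5) and B or plasma cell-gated cells in 0.833% (thinned, 0.268%; median depth 3079). Of the monocyte or macrophage-gated carriers, 26 held 5 or more Areg UMIs and the richest held 28.

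The 113 monocyte or macrophage-gated cells with Areg were deeper than the 3558 without it, with medians of 7842 and 5860.5 UMIs. As descriptions over pooled cells, they had 3163 CPM of the neutrophil chemokine Cxcl2, against 1712 CPM in cells without Areg. Il6 was at 53.1 against 20.6 CPM, and Hbegf, another ligand of the epidermal growth factor receptor, at 30.5 against 12.1 CPM. Ereg, a further such ligand, was at 0 against 0.354 CPM. The complement gene C1qa was at 526 against 912 CPM, but was found in 44.2% of cells with Areg and 42.4% of those without. These genes were picked from a longer list. At least 2 ILC2 markers were detected in 11 of the 113 cells (9.73%) and in 2.59% of the others. Gata3 and Trbc2 were each found in 0.885% of the 113, and the part of doublets was not tested.

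The subsets of core T cells are described by counts, with no test. Areg was found in 11 of 39 cells with Foxp3, the factor of regulatory T cells (28.2%, interval 15.0% to 44.9%), and in 16 of 220 without it (7.27%, interval 4.21% to 11.5%). Il4, Il5, Il13 and Csf2 were found in 0 of the 39, which allows up to 7.69% for each and so includes the shares without Foxp3 (1.36%, 4.09%, 3.18% and 6.82%). Areg was in 13.6% of cells with Gata3 and 8.05% of those without, and in 26.5% of 49 cells with Il1rl1 and 6.67% of 210 without it. Cells with Gata3 numbered 110 and held Il5 in 8, Il13 in 7, Csf2 in 13 and Il4 in 3, while the 149 without Gata3 held Il5 in 1, Il13 in 0, Csf2 in 2 and Il4 in 0 cells, where 0 allows up to 2.01%. Gata3 is also a marker of the ILC2 gate. Of the 259 core T cells, 24 had 1 UMI of the 5 core genes, and 15 of these had 3 or more ILC2 markers. Such cells made up 5 of the 9 Il5 carriers and 7 of the 15 Csf2 carriers among core T cells. The split by Gata3 may therefore include ILC2. The median depths were 2922 UMIs with Foxp3 and 3129.5 without it, and 3192.5 with Gata3 and 3047 without it.

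**Figure D2:**
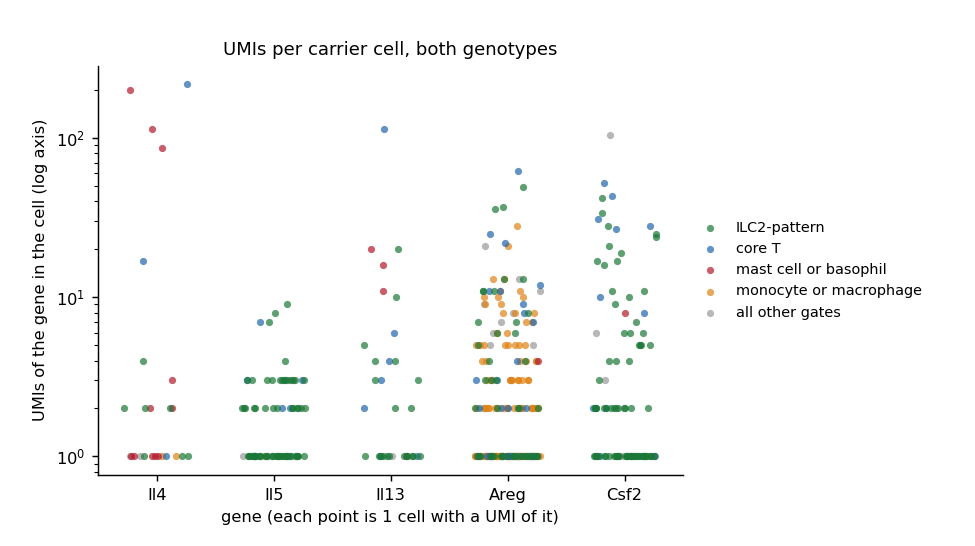
UMIs of each gene (log axis) in every cell that carries it, coloured by cell class, both genotypes together. Most Il5 carriers hold few UMIs, at most 9, while 4 cells with 87 to 218 Il4 UMIs stand apart and the Areg values of the monocyte or macrophage gate reach 28.

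ILC2-pattern cells often held more than 1 member. Of the 270, 82 had 1 member, 48 had 2, 10 had 3 and 1 had 4, and 0 had all 5. Il5 and Csf2 were found together in 31 cells, against 19.4 given by the product of their shares, summed over animals, a ratio of 1.60. Il13 and Csf2 were together in 12 cells against 6.80, a ratio of 1.77. The ratios were 1.61 and 2.09 with cells thinned to 1000 UMIs, and 1.56 and 1.76 without wild-type animal 3, which held the most ILC2-pattern cells. Il5 and Il13 met in 7 cells against 5.57, Il5 and Areg in 12 against 10.9, Areg and Csf2 in 17 against 13.7, and Il4 and Il5 in 0. Of the Il5 carriers 47.7% also had Csf2, and of the Csf2 carriers 41.9% had Il5. Pairs were counted with no test, since cells of an animal are not replicates. In all cells Il4 and Il13 met in 7 cells, among them the 3 basophil-like cells and the T cell richest in both.

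**Figure D3:**
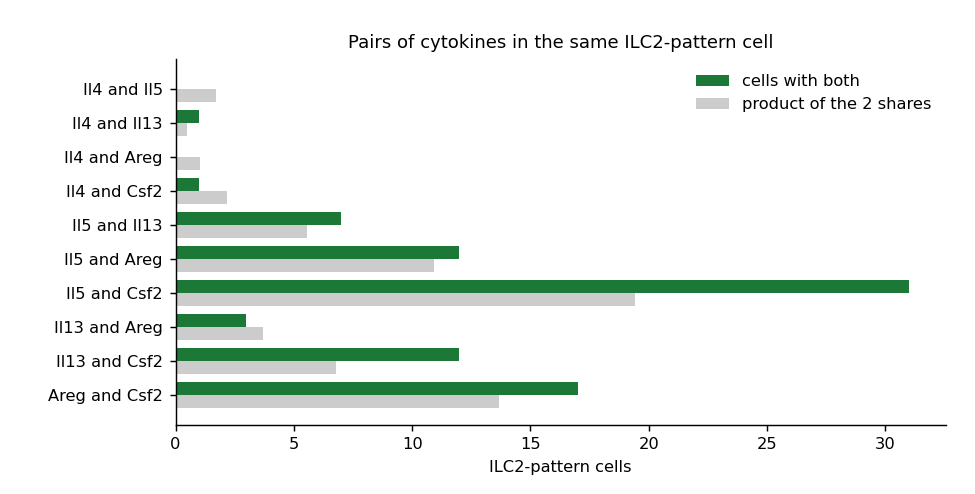
Number of ILC2-pattern cells with UMIs of both genes of a pair (green) and the number that the product of the 2 shares gives within animals (grey), among 270 cells. Il5 with Csf2 (31 against 19.4) and Il13 with Csf2 (12 against 6.80) lie above the product.

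Other cytokine genes were detected in the same class. Of ILC2-pattern cells 22.6% had Lif (2.32% of core T and 0.872% of monocyte or macrophage-gated cells), 20.7% had Tnfsf11 (RANKL; 13.1% of core T cells), 14.1% had Calca, which encodes the neuropeptide CGRP (2.70% of core T cells), and 13.3% had Il2 (6.18% of core T cells). Tnf was in 15.9% of them, but also in 47.5% of neutrophil-gated, 30.4% of mast cell or basophil-gated and 17.5% of monocyte or macrophage-gated cells. In ILC2-pattern cells Ifng, Il17a and Il10 were at 0 of 270 cells, which allows up to 1.11% for each. Il9 and Il22 had 0 UMIs in every class, and Il17a was found in 5 cells of the whole table. Ifng was found in 13.1% of core T cells, and Il17a in 1.93%. Rad50, which lies between Il13 and Il5, was detected in 31.1% of ILC2-pattern cells, and Il3, beside Csf2, had 2 UMIs in 1 core T cell.

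The genes whose pattern was most like each member were named over 55 sums of a gate in an animal, from 7 gates, by Pearson's r of log2(CPM + 10). Candidates were 11292 genes, and the sums share libraries and depth, so r is a description. With a pseudocount of 1, 2 of the 5 genes named for Il4, Il5 and Csf2 and 3 of those for Il13 and Areg were again among the top 5. For Il5 these were Tnfrsf25 (r = 0.956), Camk2n1 (0.942), ENSMUSG00000063646 (0.939), Cobll1 (0.936) and Skap1 (0.935). For Csf2 they were Bcl11b (0.929), Thy1 (0.917), Tnfsf11 (0.912), Pglyrp2 (0.906) and Ctla2a (0.904). For Il13 they were Ccl1 (0.801), Pdcd1 (0.781), Calca (0.764), Tnfsf11 (0.751) and Tesc (0.721), and for Areg they were Ctla2b (0.889), Rab4a (0.862), Tnfrsf25 (0.857), St6galnac3 (0.854) and Itgb3 (0.840). Il4 was most like Penk (0.814), Tph1 (0.814), Ly6c1 (0.701), Cryba4 (0.640) and Cyp11a1 (0.618). The sums needed 10 or more cells, and the mast cell or basophil gate had at most 5 in an animal. That gate, which held most Il4 UMIs, was therefore left out. Of the 666 Il4 UMIs, 218 lay in 1 core T cell, so the likeness for Il4 rests largely on few cells. Il5 and Csf2 had r = 0.915 with each other, and Il4 had 0.279 with Csf2.

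Between genotypes, no member passed the adjusted test in all cells or in any class. Il5 over all cells averaged lower in knock-out animals without passing adjustment, and the share of producer cells with Il5 differed in direction with the way those cells were gated. In all CD45+ cells Il5 had 1.94, 6.82, 1.11, 2.10 and 1.96 raw CPM in knock-out animals 1 to 5, against 4.16, 5.02, 7.24, 7.09 and 6.59 raw CPM in wild-type animals 1 to 5. Knock-out animal 2 lay within the wild-type range and the other 4 lay below it. These values averaged 2.79 ± 2.29 in knock-out and 6.02 ± 1.36 in wild-type animals (SD, n = 5 each; two-sided exact permutation p = 0.0317, adjusted over 10175 genes 0.721). In edgeR's quasi-likelihood test on the summed counts the log2 fold was -1.05 (SE 0.38, Benjamini-Hochberg adjusted p = 0.599), and -1.57 without knock-out animal 2 (adjusted p = 0.117). Within wells the Il5 means were 2.84 raw CPM in knock-out and 5.73 in wild-type animals in well 1, and 2.82 and 6.30 in well 2. In such sums fewer cells of a type and less RNA per cell cannot be told apart. Of the 3 members that passed the filter on low counts (Il5, Areg and Csf2), 0 were called, against 4 of 10175 genes (0.0393%), and 1 of the 3 had an unadjusted p under 0.05, as did 697 of the 10175 genes. DESeq2 called 62 of 18775 genes (0.33%), and gave Il5 an adjusted p of 0.453. The count of 4 was 1 without knock-out animal 4 and 2 without wild-type animal 4.

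Csf2 ranged widely in both groups. It had 5.82, 55.0, 24.4, 7.99 and 49.5 raw CPM in knock-out animals 1 to 5, against 11.2, 17.6, 12.1, 4.01 and 50.3 in wild-type animals 1 to 5. The groups overlapped over nearly their whole range, with means of 28.5 ± 22.9 in knock-out and 19.0 ± 18.1 in wild-type animals (exact permutation p = 0.460, adjusted 0.951; edgeR log2 fold 0.69, SE 0.76, adjusted p = 0.913). The difference was 2.89 raw CPM without knock-out animal 2 and 17.3 without wild-type animal 5.

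Areg had 9.35, 19.7, 41.0, 20.2 and 23.2 raw CPM in knock-out animals 1 to 5, against 47.1, 16.2, 39.9, 12.3 and 48.9 in wild-type animals 1 to 5. These also overlapped, with means of 22.7 ± 11.5 in knock-out and 32.9 ± 17.4 in wild-type animals (exact permutation p = 0.341, adjusted 0.939; edgeR log2 fold -0.55, SE 0.47, adjusted p = 0.904; leaving out wild-type animal 1 gave -0.31, and knock-out animal 1 -0.35). The wells disagreed for Areg, with means of 29.7 in knock-out and 26.9 in wild-type animals in well 1 and of 15.0 and 39.1 in well 2.

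Il4 and Il13 failed the filter and are given as values. Il4 had 50.6, 1.20, 0, 0 and 0 raw CPM in knock-out animals 1 to 5, against 2.63, 94.2, 4.50, 0.617 and 0.347 in wild-type animals 1 to 5. Il13 had 6.0, 2.01, 1.66, 0 and 1.12 raw CPM in knock-out animals 1 to 5, against 7.88, 37.4, 3.91, 2.16 and 0.693 in wild-type animals 1 to 5. The highest value of each group was set by the 4 cells rich in Il4. Without them, Il4 had 3 UMIs in knock-out and 44 in wild-type animals (0.241 ± 0.538 against 1.95 ± 1.69 CPM). Il13 then had 15 in knock-out and 69 in wild-type animals (1.06 ± 0.816 against 3.15 ± 2.92 CPM). These remainders also rest on few cells. Of the 44 Il4 UMIs, 17 lay in 1 core T cell of wild-type animal 3. Of the 69 Il13 UMIs, 20 and 10 lay in single ILC2-pattern cells of wild-type animal 1.

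**Figure D4:**
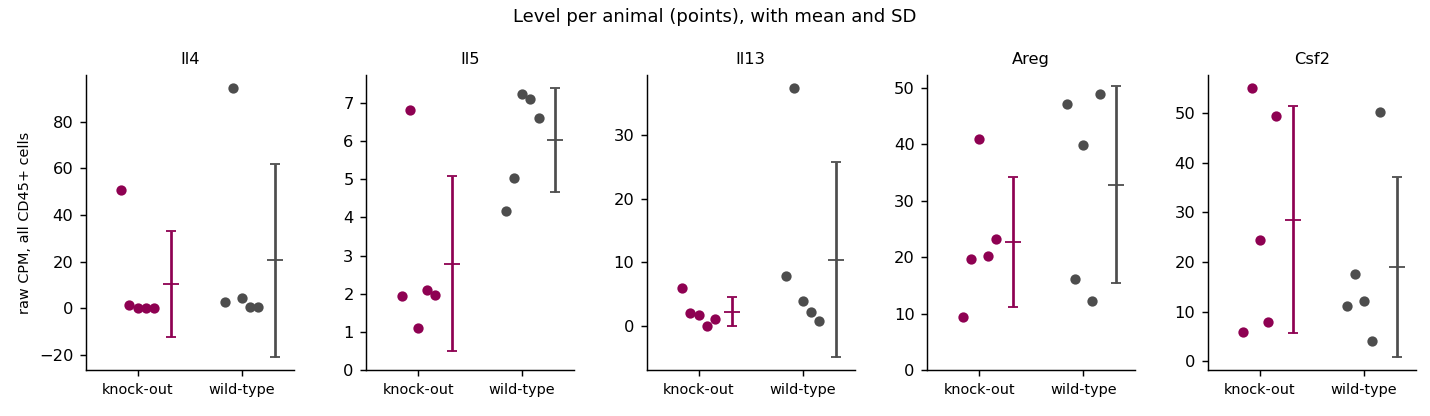
Raw CPM of each gene over all CD45+ cells of an animal (points), knock-out left and wild-type right, with mean and SD. For Il5, 4 of 5 knock-out animals lie at or below 2.10 CPM and the wild-type animals between 4.16 and 7.24, while the Il4 and Il13 panels are set by animals with 1 or 2 rich cells.

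The share of all cells with a UMI was lower on average in knock-out animals for each member, without passing adjustment. It was 0.850 ± 0.577% in knock-out and 1.77 ± 0.544% in wild-type animals for Il5 (exact permutation p = 0.0397, adjusted over 13857 genes 0.698) and 0.148 ± 0.227% against 0.594 ± 0.351% for Il4 (p = 0.0476, adjusted 0.71, exact permutation). Il13 stood at 0.349 ± 0.224% in knock-out and 0.642 ± 0.346% in wild-type animals, Csf2 at 1.31 ± 0.542% and 1.88 ± 0.670%, and Areg at 3.01 ± 0.513% and 4.08 ± 1.31% (exact permutation p = 0.151, 0.175 and 0.127).

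The producer gates took a lower average share of all cells in knock-out animals, which did not pass adjustment. Without neutrophil-gated and monocyte or macrophage-gated cells in the denominator, the T-gated share did pass (exact permutation, adjusted p = 0.0476), as given below. That was the lowest adjusted p of 16 alternative settings for this share, which ranged up to 0.619 (exact permutation). The T gate also held 138 ILC2-pattern cells. ILC2-gated cells made up 2.15 ± 1.33% in knock-out and 3.25 ± 1.73% in wild-type animals (exact permutation p = 0.302, adjusted over 12 gates 0.50), and T-gated cells 4.29 ± 2.14% and 9.28 ± 3.89% (exact permutation p = 0.0397, adjusted 0.19). The ILC2-pattern class, drawn from both gates after the data were seen, held most Il5 and Csf2 UMIs. ILC2-pattern cells made up 1.71%, 3.85%, 2.58%, 2.64% and 1.62% of the cells of knock-out animals 1 to 5, against 4.12%, 3.45%, 8.28%, 8.60% and 7.27% of wild-type animals 1 to 5. Knock-out animal 2 lay above wild-type animal 2, and otherwise the groups did not overlap. Knock-out animals averaged 2.48 ± 0.899% and wild-type animals 6.35 ± 2.40% (exact permutation p = 0.0159, adjusted over 14 classes 0.167). The difference was in the same direction within each well (3.06% against 6.15% in well 1, 1.89% against 6.51% in well 2), and with Il7r not counted as a marker (2.36% against 6.01%). Core T cells made up 3.16 ± 1.84% in knock-out and 5.65 ± 2.25% in wild-type animals (exact permutation p = 0.103, adjusted 0.289). These are shares of a sorted pool, which also move with every other class: monocyte or macrophage-gated cells were 67.8 ± 7.95% in knock-out and 54.0 ± 5.62% in wild-type animals.

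The share of producer cells with Il5 or Csf2 depended on the gate, and none of these differences passed adjustment over all genes. In ILC2-gated cells Il5 was found in 12.2 ± 10.7% in knock-out and 15.3 ± 6.64% in wild-type animals (SD, n = 3 and 4; exact permutation p = 0.686, smallest possible 0.0286; thinned, 3.56% against 7.26%), and Csf2 in 25 ± 25% and 23.9 ± 15.6% (exact permutation p = 0.943). In T-gated cells Il5 was found in 8.76 ± 3.96% in knock-out and 14.3 ± 6.08% in wild-type animals (SD, n = 5 each; exact permutation p = 0.111), and Csf2 in 15.2 ± 4.09% and 13.1 ± 5.59% (exact permutation p = 0.500). In the ILC2-pattern class, chosen after the data were seen, the averages of both were higher in knock-out animals. Knock-out animal 3 had 7 such cells and was left out of these tests, in which each of the others had 11 to 67 cells. The share with Il5 was 40.0%, 33.3%, 27.3% and 27.3% in knock-out animals 1, 2, 4 and 5, against 24.3%, 27.3%, 22.4%, 18.6% and 23.8% in wild-type animals 1 to 5. The lowest knock-out value equalled the highest wild-type value, and knock-out animals averaged 32.0 ± 6.07% against 23.3 ± 3.16% in wild-type animals (exact permutation p = 0.0317, adjusted over all genes 0.621, n = 4 and 5). The share with Csf2 was 46.7%, 40.0%, 36.4% and 54.5% in these knock-out animals, against 45.9%, 18.2%, 22.4%, 11.6% and 23.8% in wild-type animals 1 to 5. Wild-type animal 1 lay within the knock-out range and the other 4 lay below it, with means of 44.4 ± 8.0% in knock-out and 24.4 ± 12.9% in wild-type animals (exact permutation p = 0.0397, adjusted 0.641; thinned, 26.0% against 12.1%, p = 0.0317, adjusted 0.521). Within wells, where the cells per animal were fewer still, the Il5 shares were 41.0% in knock-out and 27.2% in wild-type animals in well 1 and 24.4% and 21.8% in well 2, and the Csf2 shares were 58.0% and 25.2% in well 1 and 36.3% and 23.5% in well 2. With 4 animals against 5 the smallest possible p was 0.00794. With knock-out animal 3 included at 0%, Il5 averaged 25.6% in knock-out and 23.3% in wild-type animals (exact permutation p = 0.802) and Csf2 35.5% and 24.4% (exact permutation p = 0.325, n = 5 each), so the size of the Il5 difference rests on leaving that animal out.

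**Figure D5:**
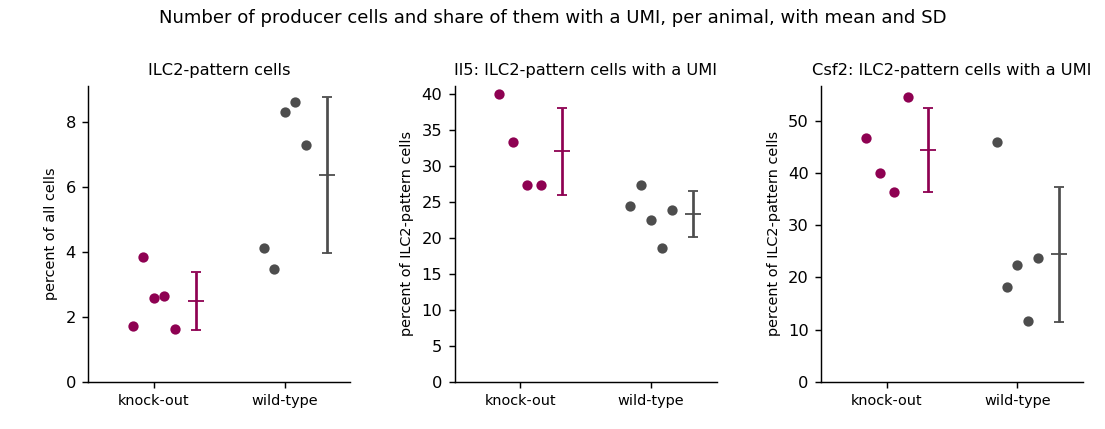
ILC2-pattern cells as a percent of all cells of each animal (left), and the percent of them with Il5 (middle) or Csf2 (right), knock-out left of wild-type, with mean and SD; knock-out animal 3 is left out of the middle and right panels. ILC2-pattern cells average 2.48% in knock-out and 6.35% in wild-type animals, while the share of them with Il5 averages 32.0% and 23.3% (25.6% in knock-out animals with animal 3 included).

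Knock-out animal 3 held 0 Il5 and 0 Csf2 UMIs in its 7 ILC2-pattern cells. Over the pooled cells of all animals, Il5 was found in 17 of 59 knock-out and 48 of 211 wild-type ILC2-pattern cells, with 0.525 and 0.455 UMIs per cell. Csf2 was found in 23 of 59 knock-out and 51 of 211 wild-type cells, with 2.69 and 1.17 UMIs per cell. In edgeR the log2 fold within ILC2-pattern cells was 0.40 for Il5 (SE 0.30, adjusted p = 0.789), 1.30 for Csf2 (SE 0.74, adjusted p = 0.713) and -1.10 for Areg (SE 1.28, adjusted p = 0.875). Csf2 was at 0.81 without knock-out animal 5, and Areg at -2.06 without knock-out animal 2, -0.68 without wild-type animal 1 and -0.56 without wild-type animal 5. Of these 3 tested members 0 were called, against 8 of 1672 genes (0.478%). An unadjusted p under 0.05 was found for 0 of the 3 and for 128 of the 1672 genes. DESeq2 called 0 of the 3 and 9 of 12269 genes (0.0734%). The count of 8 ranged from 3 without knock-out animal 4 to 10 without wild-type animal 1. Il4 was found in 0 of 59 knock-out cells, which allows a share of up to 5.08%, and in 7 of 211 wild-type cells (3.32%), so a difference was not detectable at this number of cells. Il13 was found in 12.9 ± 9.04% of cells in knock-out and 6.37 ± 1.62% in wild-type animals, and Areg in 18.0 ± 12.4% and 15.2 ± 10.4% (exact permutation p = 0.151 and 0.714).

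No member passed the test in the other classes. Areg in monocyte or macrophage-gated cells was at 12.1 ± 5.77 raw CPM in knock-out and 18.8 ± 11.9 in wild-type animals (exact permutation p = 0.317, adjusted 0.929; edgeR log2 fold -0.55, SE 0.45, adjusted p = 0.974). That log2 fold was -0.12 without wild-type animal 3, and leaving out knock-out animal 1 or 5 gave -0.35 or -0.95. In core T cells, where knock-out animal 4 with 6 cells was left out, edgeR gave log2 folds of 1.09 (SE 0.69) for Areg and 1.78 (SE 1.22) for Csf2, each with an adjusted p of 0.806. Areg was at 0.093 without knock-out animal 3, of which 1 cell held 62 Areg and 43 Csf2 UMIs, and Csf2 was at 0.97 without knock-out animal 2. The members tested were not called by edgeR or DESeq2 in any gate, against backgrounds of 0 of 1346 genes (0%; 76 with an unadjusted p under 0.05) with edgeR and 0.0157% with DESeq2 in core T cells, and 0.0225% and 0.0589% in the monocyte or macrophage gate. With edgeR and with DESeq2, 0.344% and 0.0148% of genes were called in the T gate, 0.222% and 0% in the ILC2 gate, and 0.147% and 0.0431% in the cDC gate.

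The receptors were read in the classes that could respond. In monocyte or macrophage-gated cells 41.7% had Il4ra, the chain shared by the IL-4 and IL-13 receptors, 24.8% had Il13ra1, 60.3% had Csf2ra and 41.4% had Csf2rb, chains of the GM-CSF receptor. Il5ra, the chain specific to the IL-5 receptor, had 30 UMIs in 23 of 6054 cells and none in the monocyte or macrophage gate, Il13ra2 had 0 UMIs, and Egfr, the receptor for amphiregulin, was found in 0.892% of all cells. In ILC2-pattern cells 77.0% had Il2rg, the common γ chain, and 22.2% had Il4ra. Of 6 receptor chains tested in all cells, 0 were called, 3 had a positive log2 fold, and the median log2 fold was 0.05 against 0.01 over all genes. The lowest p-values belonged to Csf2ra (log2 fold 0.15, SE 0.13, adjusted p = 0.904), Il2rg (0.19, SE 0.22, adjusted p = 0.919) and Il13ra1 (0.13, SE 0.24, adjusted p = 0.963).

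Of 10 signalling genes tested in all cells 0 were called, with a median log2 fold of -0.06, and the lowest p belonged to the kinase Tyk2, which serves the IL-13 receptor (0.38, SE 0.15, adjusted p = 0.634). Next came Cish, a feedback inhibitor of STAT5 signals (-0.31, SE 0.16, adjusted p = 0.798), and the kinase Jak1 (-0.19, SE 0.14, adjusted p = 0.874). Of 14 genes that IL-4 and IL-13 induce in myeloid cells 0 were called, 8 had a positive log2 fold, and the median was 0.07. The lowest p-values in that list were those of Retnla, a marker of alternatively activated macrophages (log2 fold 0.91, SE 0.42, adjusted p = 0.750), the lectin gene Cd209a (0.77, SE 0.38, adjusted p = 0.785) and the lipoxygenase gene Alox15 (0.90, SE 0.66, adjusted p = 0.871). Within the monocyte or macrophage gate the values were 0.88 for Retnla, 0.86 for Cd209a and 1.28 for Alox15 (SE 0.51, 0.42 and 0.81), each with an adjusted p of 0.974. In ILC2-pattern cells Arg1, the only gene of that list tested there, had a log2 fold of 0.56 (SE 0.22, adjusted p = 0.498).

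Of 17 inducers and transcription factors of producer cells tested in all cells, 1 was called. Il7r, the receptor of IL-7, which ILC2 and T cells depend on, fell to 83.7 ± 2.99 CPM after TMM scaling in knock-out animals, against 140 ± 12.5 in wild-type animals (edgeR log2 fold -0.74, SE 0.08, adjusted p = 0.00946). Of its 4006 UMIs, 1411 lay in monocyte or macrophage-gated, 1391 in ILC2-pattern, 518 in core T and 284 in cDC-gated cells. Its adjusted p was 0.0650 without knock-out animal 4 and 0.0561 without wild-type animal 4, and 0.0661 and 0.124 in wells 1 and 2 alone. In ILC2-pattern cells, where it is 1 of the markers that define the class and 97.0% of cells held it, its log2 fold was -0.22 (SE 0.15, adjusted p = 0.759), and in core T cells -1.11 (SE 0.21, adjusted p = 0.121). The list median in all cells was -0.23, and next in p came Il2ra (-0.98, SE 0.21, adjusted p = 0.182) and Rora (-1.08, SE 0.27, adjusted p = 0.284), both genes of ILC2. The shares of ILC2-pattern cells and of the other classes that hold Il7r, Il2ra and Rora move with these levels in all cells. Their part in the levels was not tested. In ILC2-pattern cells 10 genes of the list were tested, 0 were called and the median was 0.06. The lowest p belonged to the Notch effector Rbpj, at 840 ± 360 CPM in knock-out and 520 ± 53.5 in wild-type animals (log2 fold 0.66, SE 0.22, adjusted p = 0.345). Of 4 tested neighbours of the cytokine genes on chromosome 11 and 7 other lymphocyte cytokines, 0 were called in all cells, with median log2 folds of 0.02 and -0.62. The lowest p-values among the neighbours were those of Rad50 (-0.25, SE 0.21, adjusted p = 0.903), the septin gene Sept8 (0.10, SE 0.15, adjusted p = 0.947) and the kinesin gene Kif3a (0.20, SE 0.29, adjusted p = 0.949). Among the other cytokines they were those of Tnfsf11 (-0.77, SE 0.40, adjusted p = 0.798), Tnf (-1.31, SE 0.67, adjusted p = 0.80) and Calca (-1.58, SE 1.02, adjusted p = 0.857).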

How the data were processed

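UMI counts of single cells were taken as the authors deposited them, without normalization. Each cell's name carries its well, hashtag and genotype. Cell Ranger 6.0.1, R 4.0.5 and mm10 are named by the submitters' processing notes. How hashtags were called, which annotation was used and whether counting used strand is not given in the sources used here. The members and gene lists were chosen with earlier results of these data known. Animals are numbered 1 to 5 in hashtag order. No cell was removed, all held at least 1000 UMIs, and no doublet caller was run.

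Gates count markers with a UMI (8 per lineage, at least 2; a cell with 2 T markers is kept out of the ILC2 and NK gates; other ties are ambiguous). Counts were summed per animal and class (10 or more cells, 3 or more animals per genotype) and tested with edgeR 4.0.16 in R 4.3.3 (filterByExpr with minimum counts of 10 and 15 in all, TMM, robust quasi-likelihood). All genes tested enter the Benjamini-Hochberg adjustment, and calls are made at an adjusted p under 0.05. DESeq2 1.42.0 was an alternative. Raw CPM, computed from the deposited counts, and shares of cells with a UMI were compared by two-sided exact permutation over all 252 splits of 5 against 5 animals (smallest p 0.00794) or 126 of 4 against 5, adjusted over genes that pass the filter, or over genes with 10 or more UMIs for shares. Thinning used the expected detection at 1000 UMIs. Folds are log2, knock-out over wild type. Levels beside an edgeR fold are CPM after TMM scaling. The code was tested on simulated counts.

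Named genes were the members, list genes called, otherwise those of the 3 lowest p-values per list in all cells (in other classes, a choice among them), and the 5 genes most like each member. Sequences and coordinates come from RefSeq (GRCm38.p6), and all 5 members matched. Gene symbols matched for 32158 of 32285 identifiers. The neutrophil gate was not tested, since 2 knock-out animals had enough cells and a minimum of 3 was set. If counting did not use strand, UMIs of a gene and its antisense partner cannot be told apart.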

Additional observations from a re-analysis of the deposited data

Results flagged for a closer look

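In 6 of 37 groups of animals checked, 1 animal stood apart from the others of its genotype by Dixon's criterion, which chance gives in about 1 of 20 groups. Il4 was at 50.6 raw CPM in knock-out animal 1, against 0 to 1.20 in the other knock-out animals, and at 94.2 in wild-type animal 2, against 0.347 to 4.50 in the other wild-type animals. Il13 was at 37.4 raw CPM in wild-type animal 2 (0.693 to 7.88 in the others). The 4 cells rich in Il4 came from these animals, and the T cell of wild-type animal 2 also held 114 Il13 UMIs. Il5 was at 6.82 raw CPM in knock-out animal 2 (1.11 to 2.10 in the others), where 9 of 17 UMIs lay in ILC2-pattern cells and 7 in 1 core T cell with 14 UMIs of Gata3. The share of cells with Il13 was 1.24% in wild-type animal 3 (0.346% to 0.600% in the others), which was the animal with the most ILC2-pattern cells, 67. Areg was found in 36.4% of the 11 ILC2-pattern cells of knock-out animal 5 (9.09% to 13.3% in the other knock-out animals tested).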

How the results depend on the processing

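Of the alternative values of all results, 716 counted as the same, 62 moved, 29 reversed, 4 were weaker and 1 stronger. A tested value was the same if it kept direction and side of the threshold. An untested difference needed only to stay within the larger SD of the groups. Counts of genes had to stay within a set factor, and carrier and co-expression values within a binomial interval. The 716 therefore include changes of sign, as for the Il4 difference in raw CPM. No member was called under any alternative run. With well 1 only, the difference of Areg was 2.89 raw CPM (log2 fold 0.084), that of the ILC2-gated share 0.284 percentage points, that of Csf2 in ILC2-gated cells -3.06 points and that of Areg in ILC2-pattern cells -8.72 points. With well 2 only, it was 8.45 points for Il5 in ILC2-gated cells, -1.02 for Il13 and -6.17 for Csf2 in T-gated cells, 3.60 for Il5 and -3.38 for Areg in core T cells, and the log2 fold of Areg in T-gated cells was -0.55 (-0.36 with 20 cells per animal). In T-gated cells Il13 stood at -0.0709 points after thinning, and Areg at -0.682 in the exclusive gate. Without neutrophil-gated and monocyte or macrophage-gated cells in the denominator the T-gated share differed by -11.7 points (exact permutation p = 0.00794, adjusted p = 0.0476). This adjusted p was the lowest of 16 alternative settings for that share. The cause was not tested.

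Counts of called genes moved in all cells to 62 with DESeq2, 7 without a filter and 2 in well 1, and in ILC2-gated cells (2 of 900 called) to 0, 49 and, without robust dispersion, 1. In T-gated cells (6 of 1746) they moved to 2 with DESeq2, 21 without a filter, 2 without robust dispersion, 1 in well 2, 0 at 3 markers and 3 in the exclusive gate. In the monocyte or macrophage gate they moved to 10 with DESeq2, 4 without a filter, 1 in well 2 and 1 at 3 markers. In cDC-gated cells (6 of 4089) they moved to 44 without a filter, 2 in well 1 and 3 in well 2. Without a filter they were 55 in ILC2-pattern and 15 in core T cells (2 there with DESeq2). At 3 markers, 51.2% of Il5, 48.5% of Il13, 25.3% of Areg and 62.0% of Csf2 carriers were in the ILC2 or T gate, and Il5 with Csf2 in T-gated cells was 7.73 times the product.
With 1 animal left out, the counts ranged from 1 to 5 in all cells, 0 to 14 in ILC2-gated, 1 to 10 in T-gated, 0 to 3 in monocyte or macrophage-gated, 3 to 9 in cDC-gated, 3 to 10 in ILC2-pattern and 0 to 0 in core T cells. Differences that changed sign ranged from -6.97 to 3.03 points for Il5 and -11.4 to 13.6 for Csf2 in ILC2-gated cells, -0.948 to 5.08 for Areg in T-gated cells, -3.30 to 6.15 for Areg in ILC2-pattern cells, and -2.11 to 0.269 for Il5 and -2.26 to 0.979 for Il13 in core T cells. The log2 folds ranged from -1.04 to 0.23 for Csf2 in ILC2-gated and -0.40 to 0.99 for Areg in T-gated cells, that of Il7r in all cells from -0.79 to -0.70, and the Il4 difference in all cells from -20.2 to 8.35 raw CPM.
No paired analysis was possible because the shared numbers in the labels mark the RNA and hashtag libraries of 1 well, not animals of different genotypes. Fits by well, at 3 markers or with 20 cells per animal were not run where fewer than 3 animals of a genotype remained, a minimum that the fits with 1 animal left out did not keep. Carrier counts are limited by depth: absence of a UMI does not show absence of the transcript.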
